A study of Mus musculus with 6 samples.

Results

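The AP-2 transcription factors were followed in sorted derivatives of mouse embryonic stem cells. The family has 5 genes, Tfap2a, Tfap2b, Tfap2c, Tfap2d and Tfap2e, and all 5 were found among the 19938 genes measured, each on 1 row of the array's value table. The members were chosen by gene name, for a family whose difference between the 2 sorted fractions was already known from these same arrays, so their differences are given as a description and carry no p-value. The cells, of the W4/129S6 background, carried green fluorescent protein (GFP) in the Nkx2-1 locus as a knock-in. Nkx2-1 encodes a homeodomain factor needed for thyroid, lung and ventral forebrain. After 14 days of differentiation they were sorted into GFP-positive cells (Nkx2-1 high, genotype label Nkx2-1GFP+, 3 samples) and GFP-negative cells (Nkx2-1 low, genotype label Nkx2-1GFP-, 3 samples). Both fractions derive from the same reporter cells, and all 6 samples share the background, the day and the RNA amplification. The labels call the 3 samples biological replicates and do not say which cultures they came from.

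AP-2 proteins bind DNA as dimers through a conserved basic helix-span-helix domain and recognise short GC-rich palindromes. In the embryo Tfap2a and Tfap2b act in the surface ectoderm, the neural crest and the facial mesenchyme that the crest forms, and Tfap2c acts in trophoblast, primordial germ cells and ectoderm. Tfap2d is best known from the dorsal midbrain and Tfap2e from the olfactory system.

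Nkx2-1 itself, on which the cells were sorted, lay between 7.62 and 7.77 (log2 expression) in Nkx2-1 high and between 5.23 and 5.42 in Nkx2-1 low. The array medians lay between 4.98 and 5.06, after processing that equalises array distributions, so they do not show that the arrays were alike. A background level of 4.30 was set from 1210 rows of olfactory and vomeronasal receptors. A gene whose group mean is at or below it is called not above background in that group. Of the 19938 genes, 13404 were above it in at least 1 fraction, so passing this level alone says little about expression. Among markers of the labelled endodermal, lung and thyroid fate, Foxa2, Foxe1, Pax8 and Hhex were above background in both fractions. The endoderm gene Sox17, the thyroglobulin gene Tg and the surfactant gene Sftpc were above it in neither, while the surfactant gene Sftpb was above it in both.

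To show what the AP-2 recognition sequence looks like in and around these genes, promoters were searched for it. Promoters are the 250 bases before each RefSeq start in GRCm38.p6. Both spacings of the palindrome were searched, GCCNNNGGC and GCCNNNNGGC. Each reads the same in form on the opposite strand, so 1 scan covers both strands, and the 2 spacings can overlap. Of 32851 such windows over all genes, 13.73% held the first, 12.33% the second and 22.97% at least 1 of them. Of the members, 4 matched the promoter table, with 7 windows, and 1 window held a match. Tfap2c had no entry. Matches are described as letters in these windows. Shown are Tfap2a, whose upstream start carries the only member match, 167 bases before the start, and Tfap2b, which was lower in Nkx2-1 high. Prrx2 stands among the genes most like Tfap2b in pattern, and Gata3 and Egfr are the reported AP-2 targets that changed between fractions. Capitals mark the matches.
Tfap2a, chr13:40734921-40735170, minus strand: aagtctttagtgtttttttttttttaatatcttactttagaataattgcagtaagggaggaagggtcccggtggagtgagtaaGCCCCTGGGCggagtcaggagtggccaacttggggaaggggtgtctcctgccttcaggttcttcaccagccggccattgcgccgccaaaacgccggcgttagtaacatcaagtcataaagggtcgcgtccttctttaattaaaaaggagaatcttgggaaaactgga
Tfap2b, chr1:19211804-19212053, plus strand: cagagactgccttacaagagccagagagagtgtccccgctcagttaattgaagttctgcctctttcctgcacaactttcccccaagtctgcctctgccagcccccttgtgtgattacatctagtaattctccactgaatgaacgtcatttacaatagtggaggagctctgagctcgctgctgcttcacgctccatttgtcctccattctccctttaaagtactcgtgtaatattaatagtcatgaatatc
Prrx2, chr2:30845117-30845366, plus strand: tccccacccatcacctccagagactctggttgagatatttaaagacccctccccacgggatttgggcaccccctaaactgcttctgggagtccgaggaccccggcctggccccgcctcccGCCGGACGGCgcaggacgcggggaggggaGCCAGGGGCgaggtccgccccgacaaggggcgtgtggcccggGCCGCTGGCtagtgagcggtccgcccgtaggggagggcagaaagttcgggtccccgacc
Gata3, chr2:9878601-9878850, minus strand: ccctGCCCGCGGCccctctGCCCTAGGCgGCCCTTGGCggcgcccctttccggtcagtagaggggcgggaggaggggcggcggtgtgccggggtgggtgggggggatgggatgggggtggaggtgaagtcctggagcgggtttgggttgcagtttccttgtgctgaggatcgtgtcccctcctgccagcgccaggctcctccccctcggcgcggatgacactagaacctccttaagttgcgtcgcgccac
Egfr, chr11:16751953-16752202, plus strand: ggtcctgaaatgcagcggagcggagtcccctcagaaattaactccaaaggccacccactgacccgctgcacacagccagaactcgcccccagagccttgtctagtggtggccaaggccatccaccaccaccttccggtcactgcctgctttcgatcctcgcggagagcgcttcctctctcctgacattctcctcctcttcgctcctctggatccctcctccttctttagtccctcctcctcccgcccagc

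The windows of Prrx2 and Gata3 each held 3 matches, and those of Tfap2b and Egfr held 0. The window of Prrx1, not shown, held 0 as well, and Prrx1 is among the genes most like Tfap2c in pattern. GC content was 70.0% in Prrx2, 70.0% in Gata3, 60.8% in Egfr, 47.6% in Tfap2a and 46.4% in Tfap2b. Over all promoters the median was 52.4%.

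Tfap2c was the member that differed most. Its log2 expression was 5.60, 5.86 and 5.12 in the 3 Nkx2-1 high samples and 7.98, 7.66 and 7.26 in the 3 Nkx2-1 low samples. Every Nkx2-1 low sample lay above every Nkx2-1 high sample, and replicate 3 was the lowest of its group in both fractions. The means were 5.53 ± 0.37 (SD, n = 3) and 7.63 ± 0.36 (SD, n = 3), a difference of -2.11 ± 0.21 (limma SE) or 4.31-fold. By size this was the 7th largest fall among the 19938 genes. The mean was above background in both fractions. These are bulk samples, in which fewer cells of a type and less RNA per cell cannot be told apart.

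Tfap2b, which acts beside Tfap2a in facial mesenchyme and in the distal kidney tubule, stood at 3.78, 3.44 and 3.68 in Nkx2-1 high and at 4.77, 4.66 and 4.77 in Nkx2-1 low. The fractions did not overlap, and the spread within each was small. The difference was -1.10 ± 0.10. Only Nkx2-1 low was above background, so the fold is a lower bound, at least 1.35-fold lower in Nkx2-1 high.

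Tfap2a, the member most widely used in crest and ectoderm, overlapped between the fractions. It measured 5.89, 5.81 and 5.23 in Nkx2-1 high and 6.0, 5.93 and 5.74 in Nkx2-1 low. Nkx2-1 high replicate 3 was the lowest of the 6 samples. The difference was -0.24 ± 0.16, with a 95% interval from -0.60 to 0.11. Without Nkx2-1 high replicate 3 it was -0.04, so that sample carried most of it. The gene was above background in both fractions.

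Tfap2e overlapped between the fractions as well, at 4.92, 5.15 and 5.23 in Nkx2-1 high and 5.11, 5.12 and 5.10 in Nkx2-1 low. The Nkx2-1 low samples lay inside the range of the Nkx2-1 high samples. The difference was -0.01 ± 0.09, with a 95% interval from -0.22 to 0.20. Tfap2d measured 3.31, 3.41 and 3.40 in Nkx2-1 high and 3.44, 3.73 and 3.63 in Nkx2-1 low, below background in all 6 samples, and no fold is given.

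In all, 2 of the 5 members, Tfap2b and Tfap2c, passed an adjusted p of 0.05 in the limma fit over all genes, both lower in Nkx2-1 high, where 6.0% of all genes passed in either direction and 3.09% passed as lower. The fractions did not overlap for 3 members, Tfap2b, Tfap2c and Tfap2d, against 24.7% of all genes. Because the family was proposed from this comparison, nothing is read from these counts. Levels of different members are not ranked, since each comes from its own probes.

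**Figure D1:**
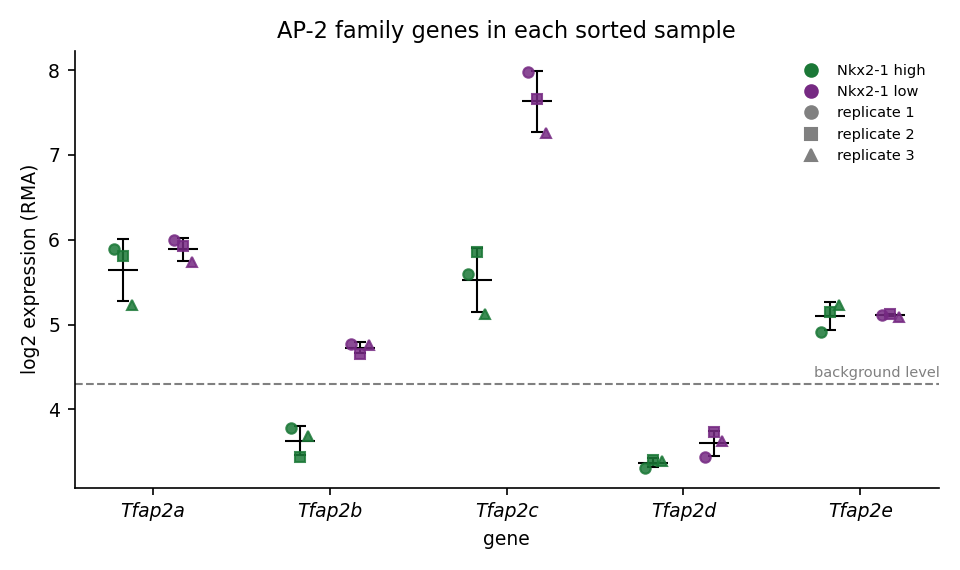
Log2 expression of the 5 AP-2 genes (vertical axis) in each of the 3 Nkx2-1 high samples (green) and 3 Nkx2-1 low samples (purple), with replicates by symbol, bars at the mean ± SD and the background level of 4.30 dashed. The fractions stand apart for Tfap2c and Tfap2b and overlap for Tfap2a and Tfap2e, while all Tfap2d values lie below the background level.

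The genes whose pattern over the 6 samples was most like Tfap2c were Alx1, Postn, Inhba, Pdgfra and Prrx1. Likeness was the root mean square distance between log2 profiles after each gene was centred on its own mean, and these 5 lay 0.17 to 0.20 from Tfap2c. No other gene lay within 0.2, and 0 lay within 0.1. Alx1, a homeobox gene of the frontonasal mesenchyme, was at 5.63, 5.59 and 5.44 in Nkx2-1 high and at 7.99, 7.65 and 7.33 in Nkx2-1 low. In Nkx2-1 low, replicate 1 was the highest and replicate 3 the lowest for both Alx1 and Tfap2c. Pdgfra and Prrx1 mark mesenchyme, Postn encodes the matrix protein periostin and Inhba an activin subunit. Each of the 5 passed the limma test as lower in Nkx2-1 high. The between-fraction difference makes up most of each profile, so this follows from choosing genes by likeness to Tfap2c. Nothing further is read from it.

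Around Tfap2b the nearest profiles were Tbx15, Grp, Rtn1, Prmt8 and Prrx2, at 0.08 to 0.13, with 31 genes within 0.2. Tbx15 and Prrx2 are transcription factor genes of limb and craniofacial mesenchyme, Grp encodes a neuropeptide and Rtn1 a reticulon of neurons and neuroendocrine cells. Prmt8, an arginine methyltransferase gene of neurons, was above background in neither fraction. Tfap2a was nearest to Septin6, Itga1, Rhoj, Mab21l2 and Clmp, at 0.04 to 0.06. None of these genes passed the test, which again follows from choosing them by likeness. Like Tfap2a, all 5 were lowest in Nkx2-1 high replicate 3, and 1893 genes lay within 0.2 of it. The flat profile of Tfap2e had 15784 genes within 0.2, so its nearest genes, Ros1, Mir681, 9130023H24Rik, Taldo1 and Olfr655, single out little.

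**Figure D2:**
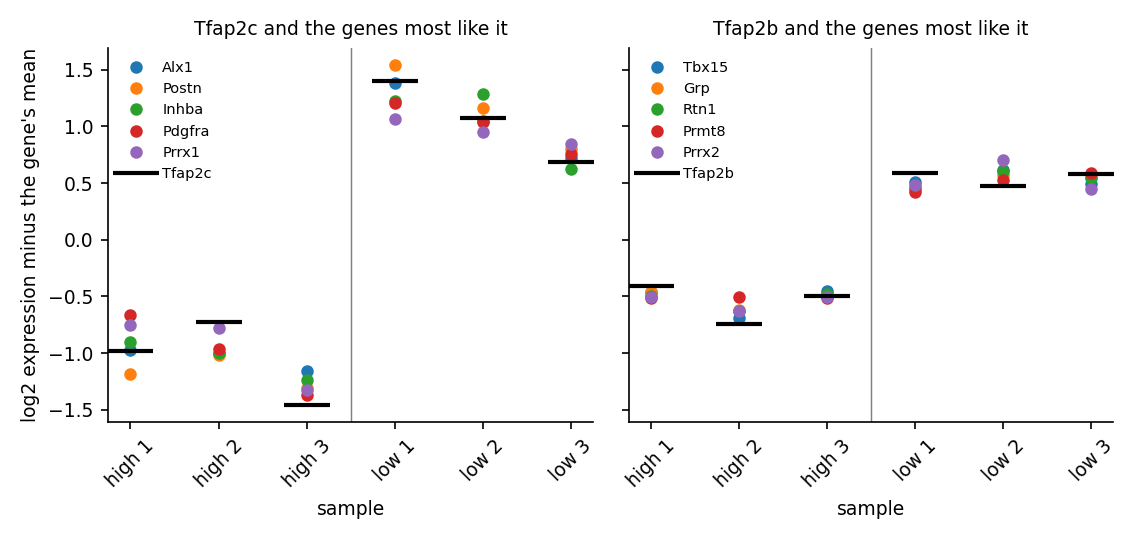
Log2 expression minus each gene's own mean (vertical axis) in the 6 samples for Tfap2c (left, black bars) and Tfap2b (right, black bars) with the 5 genes nearest to each (coloured points). Tfap2c and its nearest genes are all lower in the 3 Nkx2-1 high samples, and in Nkx2-1 low replicate 3 they lie closer to their means than in replicates 1 and 2.

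The genes beside the members on the chromosome were compared with them. The 2 nearest protein-coding genes on each side gave 16 genes other than members, of which 6 were above background in neither fraction. Of the 16, 1 passed the limma test (6.25%, against 6.0% of all genes), so the share is near that of all genes and nothing is read from it. The gene was Bmp7, which lies directly beside Tfap2c on chromosome 2 and encodes a bone morphogenetic protein. Bmp7 was at 5.95, 5.75 and 6.37 in Nkx2-1 high and at 6.69, 6.82 and 6.96 in Nkx2-1 low. Every Nkx2-1 low sample was higher, and the difference was -0.80 ± 0.15 (limma adjusted p = 0.0124). The adjusted p reached 0.0498 without Nkx2-1 high replicate 1. On the other side of Tfap2c, Fam209 (-0.07 ± 0.08) and Gcnt7 (-0.25 ± 0.16) did not pass, and neither did Spo11 beyond Bmp7. Tfap2b and Tfap2d are neighbours on chromosome 1 with differences of -1.10 and -0.23. The other genes there, Defb41, Defb18, Pkhd1 and Il17a, did not pass (differences from -0.14 to 0.04). The 4 genes around Tfap2a, Slc35b3, Ofcc1, Gcnt2 and Pak1ip1, and the 4 around Tfap2e, Psmb2, 5730409E04Rik, Ncdn and AU040320, did not pass either.

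**Figure D3:**
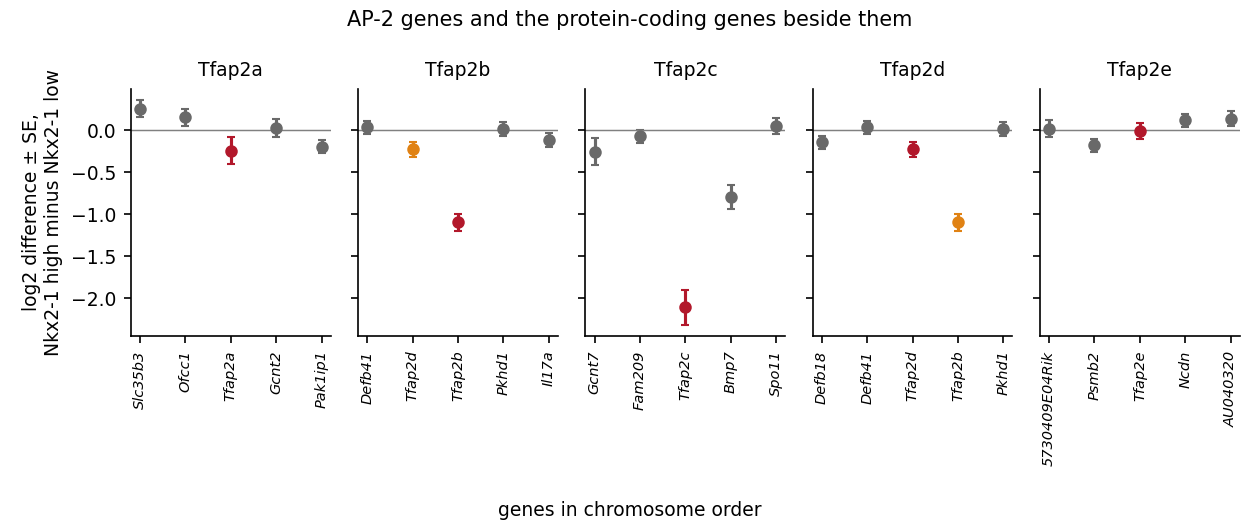
Log2 difference, Nkx2-1 high minus Nkx2-1 low, with its limma SE (vertical axis) for each AP-2 gene (red), the 2 protein-coding genes on each side of it (grey) and any AP-2 gene among those neighbours (orange), in chromosome order. Bmp7 beside Tfap2c is the lowest of the grey points, at -0.80.

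AP-2 activity depends on partners. Kctd1 and Kctd15 encode BTB-domain inhibitors, the Cited proteins and the acetyltransferases Ep300 and Crebbp are co-activators, and Kdm5b encodes a histone demethylase reported to act with Tfap2c. Of 12 listed partners 11 were measured, all 11 were above background, and by limma 0 rose and 0 fell, against 6.0% of all genes. At an unadjusted limma p under 0.05, 0 were higher and 2 were lower, Kctd15 and Yeats4. With the other variance model (trend and robust eBayes) 2 fell, and without Nkx2-1 high replicate 3 1 fell. Kdm5b differed by -0.03 ± 0.08 and Npm1 by -0.07 ± 0.12. Chosen after the values were seen, the largest difference was that of Kctd15, at -0.34 ± 0.09 (limma adjusted p = 0.0670), which did not pass. Kctd1 differed by -0.06 ± 0.08, Ep300 by 0.20 ± 0.11 and Crebbp by -0.01 ± 0.09.

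Most reported targets of AP-2 in other settings did not pass the test. Of 15 genes 13 were measured, of which 11 did not pass, 1 rose and 1 fell, or 15.4% against 6.0% of all genes, and the median difference was -0.09 against -0.01 over all genes. Gata3, a zinc-finger factor gene of trophoblast and crest derivatives, was at 8.27, 8.10 and 7.81 in Nkx2-1 high and at 7.33, 7.37 and 7.15 in Nkx2-1 low. It was higher in every Nkx2-1 high sample, by 0.78 ± 0.12 (1.72-fold, limma adjusted p = 0.00488). Egfr, the epidermal growth factor receptor gene, was at 7.15, 7.12 and 7.04 in Nkx2-1 high and at 7.85, 7.83 and 7.64 in Nkx2-1 low. It fell in Nkx2-1 high, with a log2 difference of -0.67 ± 0.09 (1.59-fold, limma adjusted p = 0.00179). Gata3 thus differed in the opposite direction to Tfap2c and Tfap2b, and Egfr in the same direction. The receptor genes Erbb2 (-0.06 ± 0.09) and Kit (-0.19 ± 0.12) did not pass. Cdh1, which encodes E-cadherin, differed by -0.36 ± 0.12 (limma adjusted p = 0.114). At an unadjusted limma p under 0.05, 1 target was higher, Gata3, and 3 were lower, Egfr, Cdh1 and Igfbp5 (-0.29 ± 0.09). With the replicate number as a block, or with the other variance model, 2 fell and 1 rose. At least 1 palindrome was found in the promoters of 6 of the 10 target genes with an entry, or 60.0%, against 25.36% of all genes. The median GC content of those promoters was 60.2%, and the part of base composition in that share was not tested. Among the marker lists described below, the share ran from 25.0% (sympathoadrenal and melanocyte) to 60.0% (trophoblast). A share of this size is therefore not particular to the reported targets.

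Genes of the tissues in which AP-2 factors act were then counted from 10 marker lists. Facial and periocular mesenchyme stood lowest. Of 19 measured genes 13 fell and 0 rose (68.4%, against 6.0% of all genes in either direction and 3.09% as lower), with a median difference of -0.76 against -0.01 over all genes. Of the 13, Shox2 was above background in neither fraction. Besides Alx1 (4.28-fold), the LIM-homeodomain genes Lhx8 (-2.54 ± 0.10, 5.80-fold) and Lhx6 (-1.52 ± 0.14) and the homeobox gene Prrx1 (-1.90 ± 0.14, 3.74-fold) fell, all by limma with adjusted p between 3.69e-06 and 0.000235. The list's mean level ran from 5.50 to 5.57 in Nkx2-1 high samples and from 6.33 to 6.45 in Nkx2-1 low samples, without overlap. Foxc1 (0.32 ± 0.09), Osr2 (0.27 ± 0.14) and Lmx1b (-0.08 ± 0.11), genes of periocular or palatal mesenchyme, did not pass. Of the neural plate border and neural crest list, 6 of 22 measured genes fell and 0 rose (27.3% against 6.0% of all genes). The median difference of -0.18 was -0.09 without Nkx2-1 low replicate 3 and -0.10 without Nkx2-1 high replicate 1, and 4 genes fell without replicate 2 of Nkx2-1 high or without replicate 1 or 2 of Nkx2-1 low. Crabp1, for a cellular binding protein of retinoic acid, was 3.79-fold lower, Msx1 3.02-fold, the mesenchymal factor gene Twist1 1.93-fold and Dlx5 1.90-fold. Among crest specifiers, named after their values were seen, Snai2 (-0.65 ± 0.15) and Snai1 (-0.39 ± 0.09) fell (limma adjusted p of 0.0373 and 0.0420). Foxd3 (0.03 ± 0.10), Sox9 (-0.03 ± 0.07) and Sox10 (0.16 ± 0.08) did not pass. Pax3 (-0.49 ± 0.12) and Sox5 (-0.40 ± 0.11) were lower but did not pass either (limma adjusted p of 0.0504 and 0.0633). At an unadjusted limma p under 0.05, 10 of the 22 genes were lower and 2 were higher. The list's mean level was 6.04 to 6.07 in Nkx2-1 high and 6.36 to 6.42 in Nkx2-1 low. The part of these cell types in the differences of Tfap2b and Tfap2c was not tested.

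Markers of ectoderm, trophoblast and germ cells were counted in the same way. Of 19 surface ectoderm and epidermis genes 1 fell, the adhesion gene Epcam (-0.81 ± 0.11), and 0 rose (median -0.05). That is 5.26%, near the 6.0% of all genes. Keratin genes Krt8 (0.16 ± 0.10) and Krt18 (0.35 ± 0.12) did not pass, nor did Trp63 (-0.05 ± 0.08), the master factor gene of stratified epithelium. At an unadjusted limma p under 0.05, 1 gene of this list was higher, Krt18, and 4 were lower. Besides Epcam these were Cdh1 (-0.36 ± 0.12), Dsp (-0.35 ± 0.10) and Perp (-0.31 ± 0.09), which did not pass. Of 12 trophoblast genes 2 rose (Gata3 and Hand1, 0.34 ± 0.08) and 1 fell (Gata2, -0.96 ± 0.18), or 25.0% against 6.0% of all genes. The call of Hand1 did not hold in any of the 6 fits that left out a sample (limma adjusted p from 0.0594 to 0.148), and that of Gata2 did not hold without replicate 1 or 2 of Nkx2-1 low (limma adjusted p of 0.051 and 0.0566). The defining trophoblast genes Cdx2, Elf5 and Eomes were above background in neither fraction. The limma fit called 0 of 12 primordial germ cell genes, with 1 higher (Prdm1, 0.52 ± 0.14) and 1 lower (Dppa3) at an unadjusted p under 0.05. Of the same 12, 1 rose without Nkx2-1 high replicate 3 and with the other variance model. Kit (-0.19 ± 0.12) and Ifitm3 (0.23 ± 0.15) did not pass. Of the 12, 5 were above background, among them Nanos3, and Pou5f1, Nanog, Prdm14 and Dppa3 were above it in neither fraction.

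Further lists covered tissues of Tfap2b, Tfap2d and Tfap2e. Of 12 sympathoadrenal and melanocyte genes 1 rose, the pigment cell factor gene Mitf (0.82 ± 0.11), while its melanocyte targets Tyr, Dct and Tyrp1 were above background in neither fraction and Pmel and Mlana were above it in both. Of 9 distal nephron genes 1 rose, Pax8 (0.60 ± 0.10), with Slc12a1, Calb1, Kcnj1 and Pvalb above background in neither fraction, Slc12a3 above it in Nkx2-1 high only and Umod above it in both. Of 10 midbrain and olfactory genes 1 fell, the homeobox gene En2 (-1.02 ± 0.13). The shares of the sympathoadrenal, nephron and midbrain lists were 8.33%, 11.1% and 10%, each 1 gene, against 6.0% of all genes. Of 13 pan-neuronal genes 7 fell and 0 rose (53.8%, against 6.0% of all genes, median -0.62). Ina (-1.58 ± 0.14) and Gap43 (-0.89 ± 0.11) were above background in both fractions. Nkx2-1 low alone exceeded the background level for Dcx and Stmn2. The lower bound on the fall was therefore at least 2.24-fold for Dcx. For Stmn2 it was at least 1.75-fold. The neuronal list's mean level ran from 4.54 to 4.82 in Nkx2-1 high and from 5.31 to 5.34 in Nkx2-1 low, and its part in the AP-2 differences was not tested. Of 15 endoderm, lung and thyroid genes 2 rose (Hhex, 0.98 ± 0.15, and Pax8) and 1 fell (Epcam), or 20% against 6.0% of all genes. Over all 12 lists, 35 of 156 measured genes passed (22.4%, against 6.0% of all genes), 5 higher and 30 lower. The lists were chosen with results of these arrays known.

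**Figure D4:**
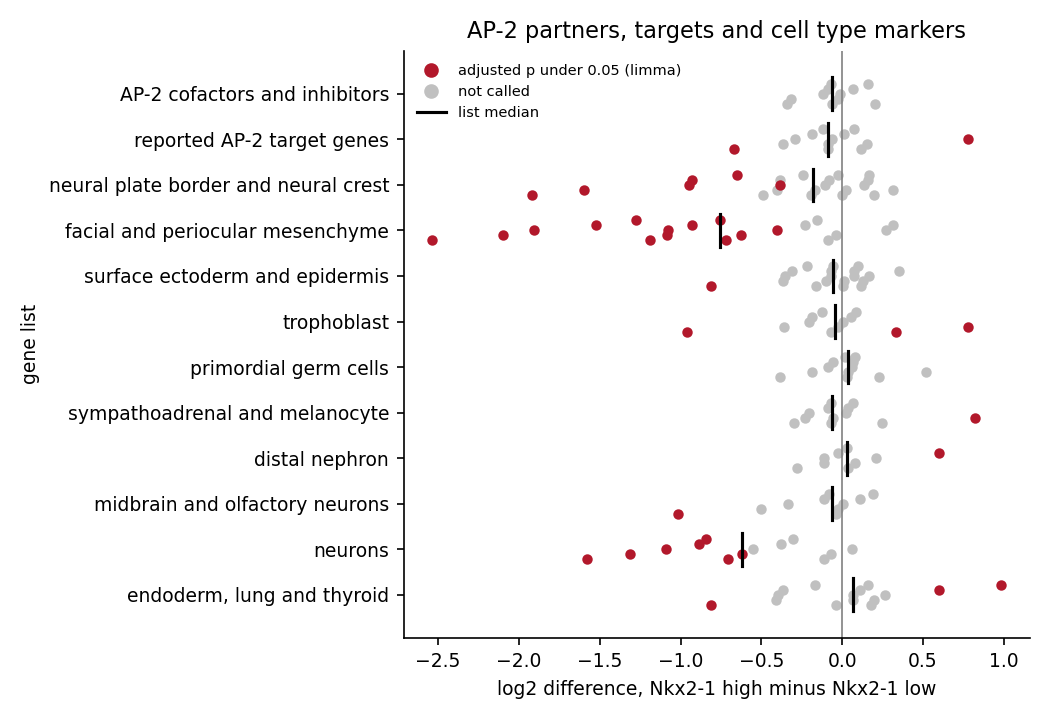
Log2 difference, Nkx2-1 high minus Nkx2-1 low (horizontal axis), of every measured gene in the 12 lists (vertical axis), with genes passing an adjusted p of 0.05 in red, others in grey and the list median as a black bar. Facial mesenchyme (median -0.76) and neurons (median -0.62) stand furthest to the left, and the lists of AP-2 partners, ectoderm, trophoblast and germ cells centre near 0.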

How the data were processed

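The 6 arrays of sorted cells were used, each 1 column of log2 expression values that the authors deposited. The submitters' processing notes name RMA, which corrects background, equalises array distributions and summarises probes. RMA gives log2 values, and the values' range bears that scale out. The RMA version and the annotation's genome build are not stated in the sources used here. Per the labels' protocols, the WT-Ovation Pico system amplified the RNA, which can alter relative signals.

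GEO's platform annotation gave 1 symbol for 21789 of 29011 rows, several for 1621 and none for 5601. Entrez IDs tied 21698 of the 21789 to RefSeq. The row with the highest mean was used for each of 19938 genes. The background level is the 95th percentile of the receptor values, and 32.8% of genes were not above it in Nkx2-1 high or in Nkx2-1 low. limma 3.58.1 in R 4.3.3 compared the fractions (group as the only term, all 6 samples, Benjamini-Hochberg over all genes, threshold 0.05). "Rose" and "fell" are used for genes past it, higher or lower in Nkx2-1 high, and ± after a difference is the limma SE. The p-values set each difference against the spread between these samples, moderated over all genes. Replicates may share culture history, in which case the p-values could be too small. Precision is limited by how few arrays there are.

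The members, the 12 lists (166 genes, 156 measured) and the tests were chosen with earlier results of these data known. Named genes were the members, up to 4 called genes of each list by size of difference (or the 2 brightest where none was called), the 5 nearest profiles of each member above background and the 2 protein-coding genes on each side in the RefSeq table. Others were named after their values were seen. Tested on simulated data of this comparison (19938 genes), the script found 83.6% of log2 changes of 0.5, 100% of those of 1 or 2, and 11 false calls. The simulated noise was drawn independently for each gene, which real arrays need not follow, so these shares may be too favourable. The alternatives were other array scalings, a filter on dim genes, another variance model, a replicate block, other rows per gene, a threshold of 0.01 and leaving out samples. Plots used matplotlib 3.10.9 (Python 3.11.15).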

Additional observations from a re-analysis of the deposited data

How the results depend on the processing

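The differences of Tfap2b and Tfap2c kept their sign under all 14 alternatives that refit them, ranging from -1.17 to -1.0 and from -2.29 to -1.91. The variance model, the replicate block, the filter and the row choice cannot move a member's difference, each member having 1 row. Only the other array scalings and the left-out samples could change it. Tfap2a ranged from -0.37 to -0.04 and Tfap2d from -0.31 to -0.16. Tfap2e ranged from -0.08 to 0.08, changing sign without Nkx2-1 high replicate 1. Leaving out both samples numbered 3, chosen after the data were seen, gave -2.09 for Tfap2c. The number of list genes that passed stayed between 27 and 42 (35 as reported). The number of all genes that passed was 1196 as reported, 507 at an adjusted p of 0.01, and 624 to 1086 when 1 sample was left out. Leaving out replicate 1 or 2 of Nkx2-1 high gave 772 or 624, and leaving out replicate 1 or 2 of Nkx2-1 low gave 765 or 709. Without both samples numbered 3 it was 877. A threshold of 0.01 passes fewer genes by construction, and the cause of the differences between left-out samples was not tested. With the replicate number as a block 1470 genes and 39 list genes passed, among them 1 germ cell gene. Deviations of samples with the same number correlated at 0.18, -0.0041 and 0.28, against -0.27 to 0.15 for different numbers. Replicates 1 and 3 lay above that range and replicate 2 inside it. Whether the numbers pair the samples is therefore not settled, and the reported fit leaves them unpaired. Members at or near the background level (Tfap2b and Tfap2d) are the ones whose size of difference the signal limits.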
